A study of Mus musculus with 4 samples.

Results

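CD8 T cells that carried RNA of the granzymes Gzmc, Gzmd, Gzme and Gzmf were examined in tumours formed in mouse liver by MC38, a mouse colon carcinoma line. The cells were selected on their own counts of unique molecular identifiers (UMIs, each standing for 1 captured RNA molecule). A barcode had to hold at least 300 genes, under 15% mitochondrial UMIs, at least 2 UMIs over Cd3d, Cd3e and Cd3g, at least 1 over Cd8a and Cd8b1, no Cd4 UMI and under 0.5% of UMIs from the C1q genes of macrophages. It also had to hold at least 3 UMIs summed over Gzmc, Gzmd, Gzme and Gzmf (Gzmc-f below) and under 3 over the cycling genes Mki67 and Top2a. These limits left 76 Gzmc-f CD8 cells among 42617 barcodes past the gene and mitochondrial filter and 50062 deposited barcodes. They were set against 1644 CD8 T cells that passed the same limits with 0 Gzmc-f UMIs. The Gzmc-f genes and the other genes of the selection are therefore described here without a test.

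Granzymes are serine proteases that cytotoxic lymphocytes store in granules and release towards a target cell, where perforin, the product of Prf1, opens the way into it. Granzyme B cleaves caspases and other substrates and is made by most activated killer cells. Gzmc, Gzmd, Gzme and Gzmf are rodent genes with no direct human counterpart, lie beside Gzmb and are known from strongly stimulated CD8 T cells and NK cells. CD8 T cells recognise peptides on MHC class I and are the main killer T cells of tumours.

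The mice were of the C57BL/6J strain, and all 4 titles call them WT, read here as wild type. In the library names below, WT marks the parental tumour line instead. All 4 libraries came from liver metastatic tumours whose cells were enriched for CD45, the leukocyte phosphatase encoded by Ptprc, on magnetic beads. There was 1 library per combination of diet and tumour line, namely high-fat diet with the line carrying a Yap knockdown (HFD_shYap), low-fat diet with that line (LFD_shYap), high-fat diet with the parental line (HFD_WT) and low-fat diet with the parental line (LFD_WT). The knockdown was made in the tumour line, not in the T cells, and the labels say neither how many mice nor how many knockdown clones were used, so the spread between libraries may be technical. For LFD_shYap the title gives the low-fat diet and the treatment field the high-fat diet, and the title was followed. In 115, 649, 572 and 659 barcodes without Ptprc but with 2 or more UMIs over Epcam, Tm4sf1 and Msln, Yap1 stood at 20.4, 17.8, 16.3 and 20.2 UMIs per 1000000 UMIs summed over those barcodes (CPM) in HFD_shYap, LFD_shYap, HFD_WT and LFD_WT. Yap1 was thus not lower in HFD_shYap than in HFD_WT there, while LFD_shYap was below LFD_WT. Over all kept barcodes, most of them immune cells, it was lower in both shYap libraries, at 1.6 against 2.64 CPM on high fat and 3.32 against 4.08 CPM on low fat. Tumour line is given below as labelled. The libraries held 106268471, 127733073, 144936859 and 125854921 UMIs in the same order, and pairs of libraries shared 33 to 63 barcode sequences, with none of the 76 cells among them. Intervals given below cover counting error only.

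The 4 granzyme genes lie within 117031 bases of GRCm38 chromosome 14, from 56117626 to 56234656, all on the minus strand: Gzme (56117626 to 56120625), Gzmd (56129556 to 56132608), Gzmf (56205263 to 56211417) and Gzmc (56231441 to 56234656). The related genes Gzmg and Gzmn lie between Gzmd and Gzmf, and Gzmb lies beyond Gzmc at 56258838 to 56262260. The sequences below, from RefSeq on GRCm38.p6, run from 150 to 31 bases before each gene's start and are shown because the 4 genes were read as 1 group and are close copies. They cover chr14:56234688-56234807 for Gzmc, chr14:56132624-56132743 for Gzmd, chr14:56120656-56120775 for Gzme and chr14:56211438-56211557 for Gzmf, each given on the minus strand from 5′ to 3′. Capitals mark TGTGGT, the core that RUNX factors recognise, and TGACGTCA, the cyclic AMP response element, searched on both strands, with no overlap between them.
Gzmc: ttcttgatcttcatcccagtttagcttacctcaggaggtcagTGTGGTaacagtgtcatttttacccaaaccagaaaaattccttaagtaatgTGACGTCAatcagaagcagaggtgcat
Gzmd: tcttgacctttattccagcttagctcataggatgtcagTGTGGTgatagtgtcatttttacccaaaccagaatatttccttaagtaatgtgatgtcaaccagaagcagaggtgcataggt
Gzme: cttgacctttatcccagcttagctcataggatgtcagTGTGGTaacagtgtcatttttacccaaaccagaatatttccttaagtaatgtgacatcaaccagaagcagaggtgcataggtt
Gzmf: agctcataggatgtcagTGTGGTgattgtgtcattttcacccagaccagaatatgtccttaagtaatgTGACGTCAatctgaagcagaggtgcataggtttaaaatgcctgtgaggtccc
The Gzmd and Gzme stretches were identical at 114 of 119 aligned bases (95.8%), and the least alike pair, Gzmc and Gzmf, at 84 of 98 (85.7%). TGTGGT was present in 4 of 4 stretches and in 7.0% of 32851 mouse promoters over the same window. The stretch at the same distance from the RefSeq start of Gzmb held TGTGGT too, so TGTGGT is not particular to the 4 genes. The bases after that start were not found in the annotated Gzmb transcripts, so the Gzmb stretch is less certain. TGACGTCA was present in the Gzmc and Gzmf stretches and in 0.953% of all promoters. Of the other motifs searched, the AP-1 site TGANTCA (N being any base) and the T-box site GGTGTGA were in 0 of 4 stretches. The TATA-like TTTAAAA was in 1 of 4, that of Gzmf. The windows were not in register, since TGTGGT lay 133 bases before the start in Gzmf and 108, 112 and 113 in Gzmc, Gzmd and Gzme. The Gzmc, Gzmd and Gzme stretches end before the whole aligned site, so its absence from those genes was not tested. A match describes the letters only. Reads from such similar genes may have been shared or dropped in counting, so values for the single genes are less certain than their sum.

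Gzmf was the leading gene of the group in these CD8 cells. It gave 767 of their 999 Gzmc-f UMIs (76.8%) and was found in 70 of the 76 cells. Gzme was found in 23 cells with 77 UMIs, Gzmc in 19 cells with 56 UMIs and Gzmd in 15 cells with 99 UMIs. In 43 cells only 1 of the 4 genes was seen, which was Gzmf in 39 of them, and 5 cells held all 4. The Gzmf share of Gzmc-f UMIs was 78.7% in HFD_shYap, 64.8% in LFD_shYap, 86.4% in HFD_WT and 75.0% in LFD_WT, so Gzmf led in each library. Gzme was most evident in LFD_shYap, with 17.4% of Gzmc-f UMIs, against 4.19% in HFD_shYap, 2.79% in HFD_WT and none in the 3 cells of LFD_WT.

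The amount per cell was spread widely. The 28 cells of HFD_shYap held 3 to 40 Gzmc-f UMIs with a median of 7.5, the 22 cells of LFD_shYap 3 to 98 with a median of 6, the 23 cells of HFD_WT 3 to 66 with a median of 9, and the 3 cells of LFD_WT 5, 7 and 20. The ranges overlapped across all 4 libraries. Of the 76 cells, 15 stood at exactly 3 UMIs and 14 held 20 or more. Just outside the limit, 92 CD8 cells held 1 or 2 Gzmc-f UMIs. Prf1 stood at 157 CPM in those 92 cells, at 339 CPM in cells with 3 to 5 Gzmc-f UMIs, at 403 CPM with 6 to 9, at 206 CPM with 10 to 19 and at 383 CPM with 20 or more, so within the selected cells it did not climb step by step with the Gzmc-f count.

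**Figure D1:**
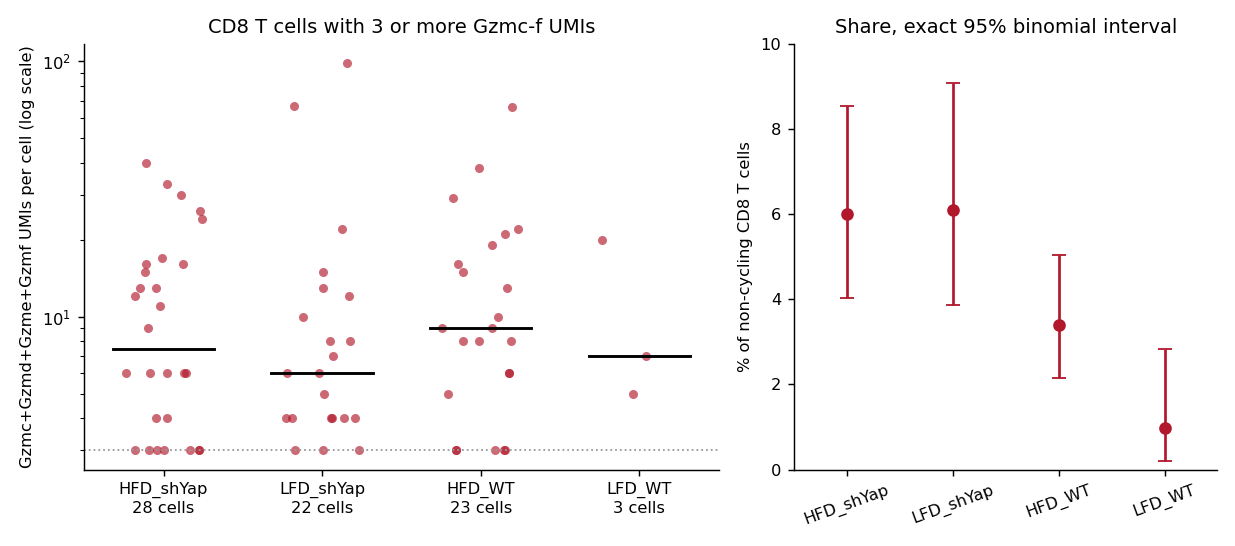
Left, each point is 1 Gzmc-f CD8 cell with its summed Gzmc, Gzmd, Gzme and Gzmf UMIs on a log axis, by library, with the median as a bar and the selection limit of 3 as a dotted line. Right, the share of these cells among non-cycling CD8 T cells with exact 95% binomial intervals; the medians lie between 6 and 9 UMIs, and the share is 0.980% in LFD_WT and 3.39% or more elsewhere.

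The cells carried T cell RNA and little that defines NK cells. Trac, the constant region of the T cell receptor alpha chain, was found in 69 of the 76 cells. Ncr1, the NK receptor NKp46, and Trdc, the delta chain constant region of gamma-delta T cells, were found in 0 of 76 cells, which allows a share of cells with such a UMI of up to 3.95% and sets no limit on cells that express the genes. Klrb1c, another NK receptor gene, was found in 4 cells. Of 8 NK markers, Ncr1, Klra9 and Klra1 had no UMI in the 76 cells, and the summed level was 126 to 392 CPM per library in Gzmc-f CD8 cells, 411 to 702 CPM in CD8 cells without Gzmc-f and 2490 to 4211 CPM in NK cells gated by Ncr1 or Klrb1c without CD3. Tyrobp, which myeloid cells also express, gave 206 UMIs of this sum in the 76 cells, and the sum was 2120 to 2636 CPM in macrophages, so it does not separate NK from myeloid RNA. Of 8 markers of gamma-delta and NKT cells, 5 had no UMI, while Tcrg-C2 had 96 UMIs in 34 cells. Cd8a was found in 68 cells, but the selection itself asked for a Cd8a or Cd8b1 UMI. By doublet score, 5 of the 76 cells ranked among the highest of their libraries.

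NK cells carried more Gzmc-f RNA than the CD8 cells, in another mixture. Among 400 gated NK cells, 158 held 3 or more Gzmc-f UMIs, with a median of 57.5 UMIs against 8 in Gzmc-f CD8 cells, but 120 of these NK cells came from LFD_WT. By library the medians were 17, 69, 15.5 and 69 UMIs in NK cells of HFD_shYap, LFD_shYap, HFD_WT and LFD_WT, against 7.5, 6, 9 and 7 in Gzmc-f CD8 cells. Of these NK cells 140 held Gzmc and 93 held Gzmf, against 19 and 70 of the 76 Gzmc-f CD8 cells. Gzmf gave 44.7% of the 23149 Gzmc-f UMIs of NK cells. Within HFD_shYap, Gzmf gave 78.7% of Gzmc-f UMIs in Gzmc-f CD8 cells and 3.94% of the 381 in NK cells, and within HFD_WT 86.4% and 51.0%. In LFD_shYap the shares were 64.8% and 53.2%, and in LFD_WT 75.0%, from 32 UMIs, and 44.4%. The Gzmf share was thus higher in the CD8 cells in 4 of 4 libraries, with no test between single libraries. Single cells weighed on these shares. The top NK cell gave 34.9%, 26.7%, 51.0% and 5.99% of the Gzmc-f UMIs of NK cells in HFD_shYap, LFD_shYap, HFD_WT and LFD_WT. The top Gzmc-f CD8 cell gave 12.0%, 31.6%, 20.4% and 62.5% in the same order. One cycling CD8 cell of HFD_WT held 425 Gzmc-f UMIs, which was 89.5% of that class in that library. Over all 28 cycling CD8 cells with 3 or more Gzmc-f UMIs, 23 held Gzmf, and Gzmf gave 62.6% of the UMIs of cycling CD8 cells.

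**Figure D2:**
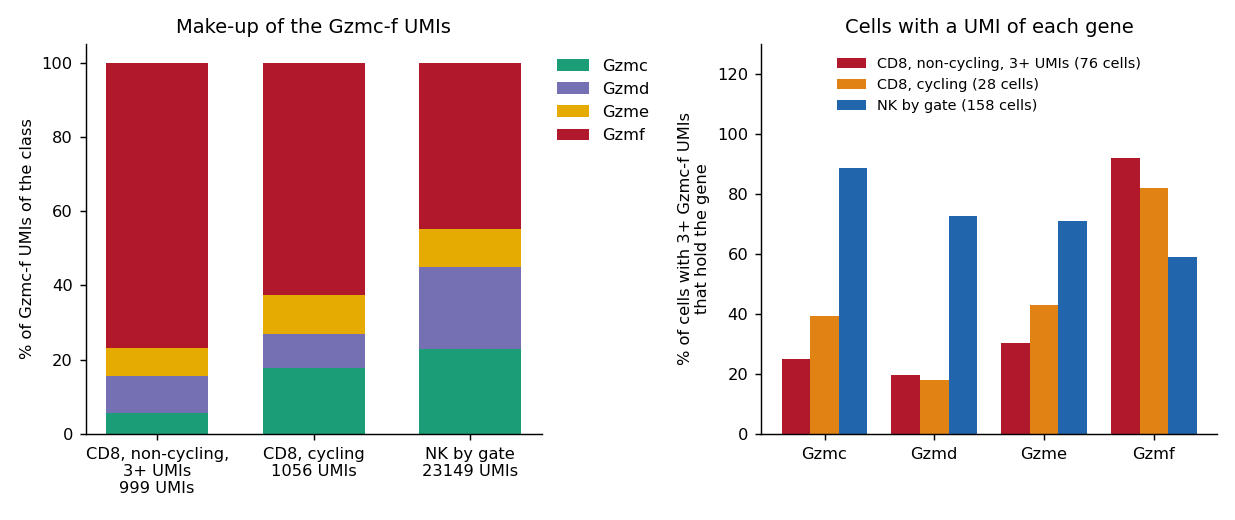
Left, the percentage of all Gzmc-f UMIs given by each gene in non-cycling Gzmc-f CD8 cells, cycling CD8 cells and gated NK cells, with the UMI totals under the bars. Right, the percentage of cells with 3 or more Gzmc-f UMIs that hold each gene; Gzmf is in 92.1% of Gzmc-f CD8 cells and Gzmc in 88.6% of NK cells.

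Gzmc-f CD8 cells were a small share of CD8 T cells, and LFD_WT had the fewest. They made up 28 of 467 non-cycling CD8 T cells in HFD_shYap (6.00%, exact 95% interval 4.02 to 8.55%), 22 of 361 in LFD_shYap (6.09%, 3.86 to 9.08%), 23 of 678 in HFD_WT (3.39%, 2.16 to 5.05%) and 3 of 306 in LFD_WT (0.980%, 0.203 to 2.84%). The interval of LFD_WT lay below those of both shYap libraries and overlapped that of HFD_WT. With a limit of 10 UMIs the LFD_WT share was 0.327% (0.00827 to 1.81%), and its interval overlapped those of HFD_shYap (1.49 to 4.71%) and LFD_shYap (0.783 to 3.95%). With 1 library per combination, no test of diet or tumour line was made on these shares. Depth moved with the selection: the median was 8645 UMIs in Gzmc-f CD8 cells and 5968.5 in CD8 cells without Gzmc-f, and the CD8 cells without Gzmc-f had medians of 7238, 6259, 5567.5 and 5052 UMIs in HFD_shYap, LFD_shYap, HFD_WT and LFD_WT, which is the order of the shares except for the first pair. The part of depth in the shares was not tested beyond the thinning that follows. When every barcode was thinned to 1500 UMIs, leaving 291, 199, 473 and 175 CD8 cells, the selection kept 7, 1, 6 and 1 cells (2.41%, 0.503%, 1.27% and 0.571%), and all 4 intervals overlapped.

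With a limit of 1 Gzmc-f UMI, the CD8 share of LFD_WT stood close to the shares of its myeloid cells. Such low counts were not read as expression there. With 1 or more UMIs taken, the CD8 share was 8.82% in LFD_WT, where 8.47% of neutrophils and 7.11% of macrophages also had such a UMI, with median depths of 5052 UMIs in CD8 cells without Gzmc-f, 2050 in neutrophils and 7235 in macrophages. NK cells of that library held 20060 Gzmc-f UMIs. In HFD_shYap, LFD_shYap and HFD_WT the CD8 shares with 1 or more UMIs were 10.5%, 11.6% and 7.37%, against 0.259%, 1.73% and 0.731% of macrophages. With 3 or more UMIs, 0, 4, 1 and 36 macrophages of HFD_shYap, LFD_shYap, HFD_WT and LFD_WT passed. The 36 were 0.439% of LFD_WT macrophages, which lies inside the interval of the CD8 share of that library. By share, the 3 cells of LFD_WT were therefore not set apart from macrophages. The source of the Gzmc-f UMIs in myeloid cells was not tested. None of 341 B cells held 3 or more Gzmc-f UMIs.

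Gzmc-f CD8 cells held more RNA of perforin, granzyme B, 4 receptors for costimulation and cytokines and 5 genes of glycolysis, and less of several naive, homing and interferon-response genes, than CD8 cells without Gzmc-f of the same libraries. UMIs were summed per library and class and compared with edgeR's quasi-likelihood test with the library as a block, leaving out LFD_WT because its Gzmc-f sum held only 3 cells. Of 7836 genes tested, 83 were higher (1.06%) and 179 lower (2.28%) in Gzmc-f CD8 cells at an adjusted p under 0.05, the genes of the selection not counted. Genes scarce in the Gzmc-f sums could pass the count filter through the larger sums of the other cells. Counts of higher and lower genes, here and in the lists below, can therefore lean towards lower ones. The 6 sums left 2 residual degrees of freedom. In this and the later edgeR comparisons, the variance of a gene also draws on a value pooled over genes. The p-values therefore do not rest on these residual degrees of freedom alone. Nor do they measure only the spread of that gene between libraries. With DESeq2, 39 were higher and 48 lower, and without the LFD_shYap library 39 and 87. Prf1 and Gzmb kept direction and call under each alternative run. None of the 4 receptors and 5 glycolysis genes did so under all of them.

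Perforin and granzyme B rose together. Prf1 stood at 394, 230 and 324 CPM in Gzmc-f CD8 cells of HFD_shYap, LFD_shYap and HFD_WT, against 106, 72.9 and 109 CPM in CD8 cells without Gzmc-f. The lowest Gzmc-f value was above the highest of the other cells, and the log2 fold change was 1.78 ± 0.16 (SE; edgeR adjusted p = 6.12e-17). Gzmb stood at 702, 451 and 642 CPM in Gzmc-f CD8 cells, against 255, 231 and 284 CPM, again without overlap, with a log2 fold change of 1.27 ± 0.14 (edgeR adjusted p = 2.45e-12). The LFD_WT cells, not in the fit, had 531 CPM of Prf1 and 278 CPM of Gzmb in the Gzmc-f class, against 57.3 and 204 CPM in the other. Gzma, a granzyme of NK cells and of some effector T cells, fell (log2 fold change -1.16 ± 0.25, edgeR adjusted p = 0.000707). In Gzmc-f CD8 cells it was seen in 0 of 28 cells in HFD_shYap, 6 of 22 in LFD_shYap and 1 of 23 in HFD_WT. In CD8 cells without Gzmc-f it was seen in 27 of 418, 57 of 319 and 57 of 628 cells. The share of cells with Gzma was thus higher in the Gzmc-f class in LFD_shYap (27.3% against 17.9%), so the fall is one of summed UMIs.

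Of 14 genes of granule exocytosis and killing, 2 rose and none fell, with a list median log2 fold change of 0.08 against -0.02 over all genes. Besides Prf1, this was Serpinb6b, a serine protease inhibitor of the family that protects killer cells from their own granzymes, at 429 CPM on average in Gzmc-f CD8 cells against 252 CPM (0.81 ± 0.15, edgeR adjusted p = 8.21e-05). Nkg7, a granule membrane protein, was at 1586 and 1556 CPM and did not pass the test (0.05 ± 0.10, adjusted p = 0.922). Fasl, a death receptor ligand, was at 101 and 98.6 CPM (adjusted p = 0.907).

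Among receptors for costimulation and cytokines, 4 of 15 genes tested rose and none fell, with a list median of 0.31. Il12rb2, a chain of the interleukin 12 receptor, stood at 112, 88.5 and 62.5 CPM in Gzmc-f CD8 cells of HFD_shYap, LFD_shYap and HFD_WT, against 44.7, 34.0 and 27.7 CPM (1.36 ± 0.26, edgeR adjusted p = 5.72e-05). Icos, a costimulatory receptor of the CD28 family, averaged 182 CPM against 93.9 CPM (0.97 ± 0.18, adjusted p = 6.48e-05). Tnfrsf4, the costimulatory receptor OX40, averaged 237 CPM against 131 CPM (0.92 ± 0.17, adjusted p = 2.40e-05). Il2ra, the high-affinity chain of the interleukin 2 receptor, averaged 33.6 CPM against 13.1 CPM (1.46 ± 0.40, adjusted p = 0.0168). None of 8 STAT5 target genes tested, which interleukin 2 signalling is known to induce, was called, and their median was -0.38.

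Irf8 had the clearest difference among transcription factors. It stood at 391, 221 and 505 CPM in Gzmc-f CD8 cells of HFD_shYap, LFD_shYap and HFD_WT, against 123, 134 and 151 CPM, without overlap (1.47 ± 0.16, edgeR adjusted p = 1.14e-12). Irf8 is best known for its part in the dendritic cell and monocyte lineages and is also made by activated T cells. Of the 13 effector and residency factors tested, Irf8 rose, Maf fell (-1.31 ± 0.37, adjusted p = 0.0187) and 11 were not called, Tbx21 (0.38 ± 0.22) and Runx3 (-0.05 ± 0.16) among them. Over 31 sums of 8 lymphoid and myeloid classes in the 4 libraries, Irf8 was the gene whose log2 CPM was most like that of the Gzmc-f sum (Pearson r = 0.77), followed by Arsb (0.73), Prf1 (0.71), Myl6 (0.70) and Myb (0.70). The sums share libraries and depth, and the CD8 classes were themselves split by the Gzmc-f count, so these r values are a description only and add nothing to the class difference.

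Genes of naive, memory and progenitor T cells were lower. Of 13 tested, 5 fell and none rose, and the list median was -1.19. That median was the value of Slamf6, with 3 UMIs against 102, a ratio of 0.405 (counting interval 0.0821 to 1.22). Genes with few UMIs in the Gzmc-f sums could pass the count filter through the larger sums of the other cells. The median can therefore lean towards lower values and is a description only. Ccr7, the receptor that guides T cells into lymph nodes, stood at 16.0, 0 and 0 CPM in Gzmc-f CD8 cells of HFD_shYap, LFD_shYap and HFD_WT, against 108, 45.0 and 70.7 CPM (-3.46 ± 0.46, edgeR adjusted p = 1.87e-09). Tcf7, the factor TCF1 of memory and progenitor cells, had 1 UMI in the Gzmc-f CD8 cells of these libraries and 223 in the other cells, a ratio of 0.0617 (counting interval 0.00156 to 0.347). S1pr1, the receptor for exit from tissue, had 0 and 173 UMIs and was at least 4.19-fold lower, with 3 counts over the class as the floor. Xcl1, a chemokine for cross-presenting dendritic cells that progenitor-like CD8 cells also make, averaged 17.7 CPM against 91.1 CPM (-2.29 ± 0.36, adjusted p = 6.52e-07). Bcl2, a survival factor, averaged 136 CPM against 221 CPM (adjusted p = 0.0248).

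Homing receptors showed the same direction. Of 9 residency and homing receptors tested, 4 fell and none rose: Cxcr3 and Ccr2, which follow inflammatory chemokines, Itgb7, an integrin chain of gut homing, and Cd69, a retention and early activation marker. Cd69 averaged 15.3 CPM in Gzmc-f CD8 cells and 43.1 CPM in the others (edgeR adjusted p = 0.0336). Cxcr3 had 1 and 158 UMIs, and the limit of the count filter given for the naive list holds for this list too. Cxcr6, common on CD8 cells inside tumours, was at 181 and 168 CPM and did not pass. Ly6c2, a surface protein of memory CD8 cells and of monocytes, stood at 51.3, 8.85 and 34.1 CPM in Gzmc-f CD8 cells, against 242, 438 and 312 CPM, without overlap (-3.19 ± 0.25, edgeR adjusted p = 1.76e-21).

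**Figure D3:**
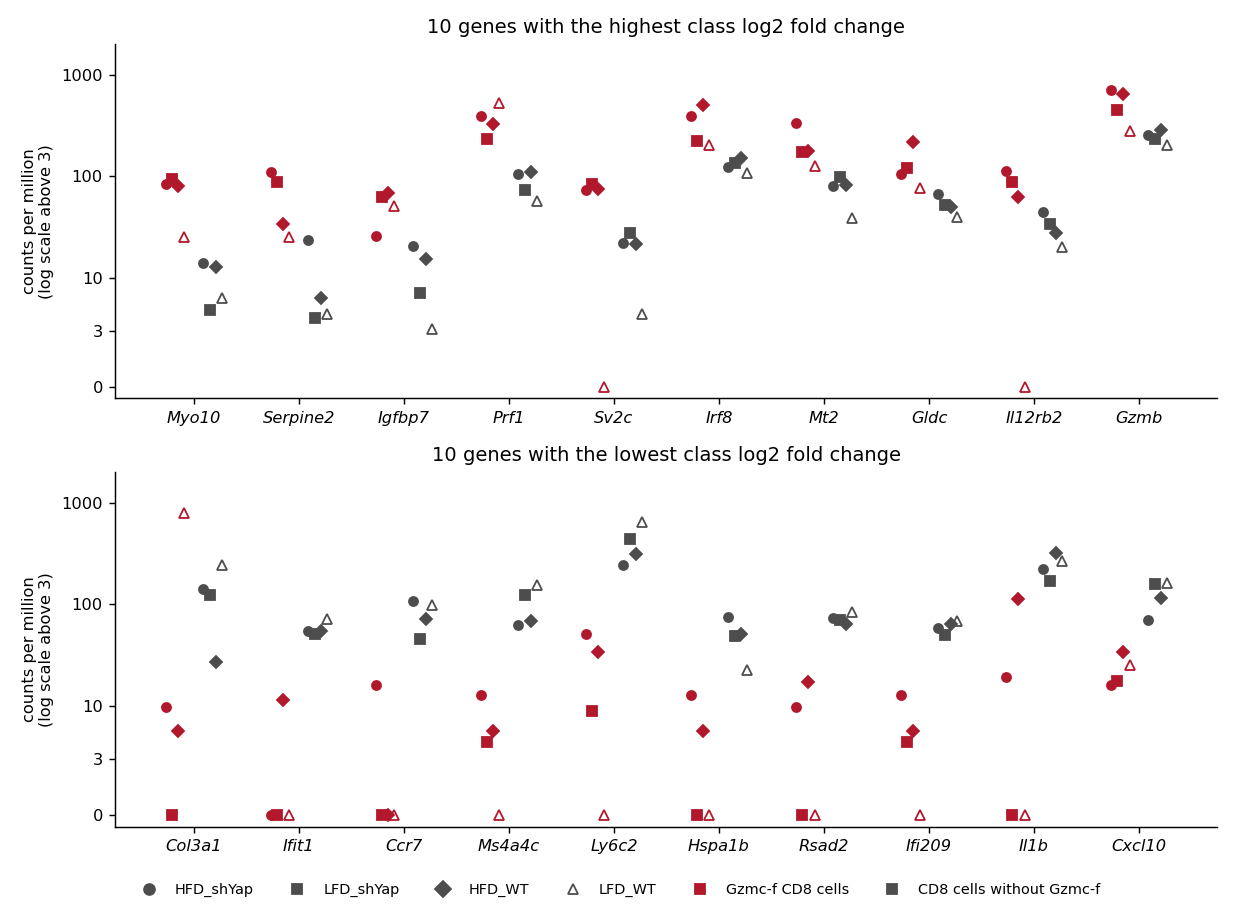
CPM, on the vertical axes, of the 10 genes with the highest and the 10 with the lowest class log2 fold change among called genes with at least 50 CPM in the higher class. Each point is 1 library, red for Gzmc-f CD8 cells on the left and grey for CD8 cells without Gzmc-f on the right; open triangles are LFD_WT, which was not in the fit, and its Gzmc-f point for Col3a1 comes from 1 cell with 31 UMIs.

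The inhibitory receptors showed no called difference between the classes, which does not show that they are equal. Of 13 genes of inhibitory receptors and exhaustion tested, none was called by edgeR, and the list median was 0.04. Pdcd1, the receptor PD-1, averaged 294 CPM in Gzmc-f CD8 cells and 297 CPM in the others (0.04 ± 0.16, adjusted p = 0.965), and its sign changed under 4 alternatives that did not choose cells by Pdcd1. Over all 4 libraries a Pdcd1 UMI was seen in 80.3% of Gzmc-f CD8 cells and 63.9% of the others, at median depths of 8645 and 5968.5 UMIs. Havcr2, the receptor TIM-3, averaged 57.3 CPM against 32.6 CPM and was higher in 3 of 3 libraries without passing the test (0.86 ± 0.30, adjusted p = 0.0963). Nr4a1, also of this list, was lower in 3 of 3 libraries and narrowly missed the limit (-0.67 ± 0.21, edgeR adjusted p = 0.0505). Lag3 was at 140 and 122 CPM, Ctla4 at 138 and 138 CPM and Tox, a factor of exhausted cells, at 180 and 201 CPM. None of 11 NK receptors and adaptors rose, and Tyrobp, an adaptor of NK and myeloid receptors, fell (-0.62 ± 0.15, adjusted p = 0.00462).

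Interferon-response genes that were tested were mostly lower. Of 13 tested, 8 fell and 1 rose, with a list median of -1.12. The count filter can favour lower genes here as in the naive list, so these counts and the median are a description only. Ifit1, an antiviral RNA-binding protein, had 2 UMIs in the Gzmc-f CD8 cells of the 3 libraries and 524 in the others, a ratio of 0.0525 (counting interval 0.00634 to 0.191). Ifi27l2a averaged 425 CPM in Gzmc-f CD8 cells against 1116 CPM in the others (-1.28 ± 0.13, edgeR adjusted p = 2.80e-14). The chemokine Cxcl10, which interferons induce, stood at 16.0, 17.7 and 34.1 CPM in Gzmc-f CD8 cells, against 70.6, 158 and 114 CPM (-2.30 ± 0.31, adjusted p = 2.69e-09). The gene that rose, Ifitm1, had 0 UMIs in LFD_shYap and rested on few cells, described with diet below.

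Chemokines made by CD8 cells fell as well, Ccl3, Ccl4 and Ccl5 among 10 cytokine and chemokine genes tested, while Areg, a growth factor of the EGF family, rose. Ccl5 averaged 2827 CPM in Gzmc-f CD8 cells and 4530 CPM in the others (-0.62 ± 0.09, edgeR adjusted p = 6.32e-09). Areg was higher in 2 of 3 libraries. Ifng was at 33.5 and 41.9 CPM (adjusted p = 0.872).

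Of 14 genes of glycolysis and hypoxia, 5 rose and 1 fell, with a list median of 0.35. Slc2a3, a glucose transporter, averaged 50.7 CPM against 21.7 CPM (1.26 ± 0.34, edgeR adjusted p = 0.0122). The enzymes Ldha, Gapdh, Eno1 and Tpi1 rose by 0.44 to 0.54 on the log2 scale, each in 3 of 3 libraries. Vegfa, a hypoxia-induced growth factor, fell (-1.44 ± 0.40, adjusted p = 0.0165). Of 12 genes of the cytoskeleton, adhesion and annexins, 5 rose, among them S100a4, a calcium-binding protein of motile and effector cells, at 1779 and 977 CPM on average (0.93 ± 0.10, adjusted p = 2.19e-12), and Capg, an actin-capping protein, at 307 and 168 CPM. In the cell cycle list 1 of 14 rose, Ccnb2, whose 21 UMIs came from 10 cells.

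Several of the largest rises were in genes outside these lists. Myo10, a myosin of filopodia, stood at 83.3, 92.9 and 79.5 CPM in Gzmc-f CD8 cells of HFD_shYap, LFD_shYap and HFD_WT, against 14.1, 4.86 and 12.8 CPM (3.04 ± 0.32, edgeR adjusted p = 1.28e-13). Its 62 UMIs came from 27 of the 76 cells. Serpine2, a secreted inhibitor of serine proteases, stood at 109, 88.5 and 34.1 CPM against 23.5, 3.97 and 6.38 CPM (2.82 ± 0.33, adjusted p = 2.11e-11), from 21 cells, and 16 of the 20 UMIs in LFD_shYap came from 1 cell. Igfbp7, a secreted binding protein of insulin-like growth factors, stood at 25.6, 61.9 and 68.2 CPM against 20.7, 7.07 and 15.2 CPM (1.80 ± 0.38, adjusted p = 0.000351), nearly level in HFD_shYap. Sv2c, a synaptic vesicle protein, stood at 73.7, 84.0 and 73.8 CPM against 21.8, 27.8 and 21.6 CPM. Gldc, an enzyme of glycine breakdown, stood at 106, 119 and 216 CPM against 66.3, 52.1 and 49.3 CPM. The metallothionein gene Mt2 stood at 330, 173 and 176 CPM against 79.2, 97.6 and 82.2 CPM. Genes outside the lists were named only if they changed the same way in all 3 libraries, so that agreement adds no support. The classes did not overlap for these genes. Such non-overlap is a description only, here and above, since its share over all genes was not counted.

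RNA of other cell types moved with the class, mostly towards lower levels in Gzmc-f CD8 cells but not in every library. Of 10 macrophage markers, 5 fell and none rose, and their summed level was 2398 to 3589 CPM per library in Gzmc-f CD8 cells, 4173 to 8078 CPM in CD8 cells without Gzmc-f and 38495 to 61634 CPM in macrophages. None of the 10 was at 0 in the Gzmc-f class. Lyz2 was nevertheless at 798 CPM in Gzmc-f CD8 cells of HFD_shYap, against 706 CPM in CD8 cells without Gzmc-f. Of 4 neutrophil markers tested, S100a8 and S100a9 fell by edgeR, but both were lower in only 2 of 3 libraries and changed sign without LFD_shYap (0.48 and 0.03). Of their 154 and 183 UMIs in the 76 cells, 150 and 180 came from 1 cell of HFD_WT. Of 6 neutrophil markers, the summed level was 0 to 2062 CPM per library in Gzmc-f CD8 cells and 197 to 1551 CPM in CD8 cells without Gzmc-f, and it was higher in the Gzmc-f class in HFD_WT (2062 against 1287 CPM). Of 5 tumour-like, stromal and endothelial markers tested, Col3a1, Dcn and Tm4sf1 fell. The sum of 10 such markers was 12.8, 35.4 and 45.4 CPM in Gzmc-f CD8 cells of HFD_shYap, LFD_shYap and HFD_WT, against 235, 234 and 96.2 CPM, but 960 against 394 CPM in LFD_WT. The 494 Col3a1 UMIs of CD8 cells without Gzmc-f in HFD_shYap included 484 from 1 cell. Il1b, a cytokine of myeloid cells, stood at 19.2, 0 and 114 CPM in Gzmc-f CD8 cells against 221, 169 and 321 CPM. The part of such RNA in the differences above was not tested.

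**Figure D4:**
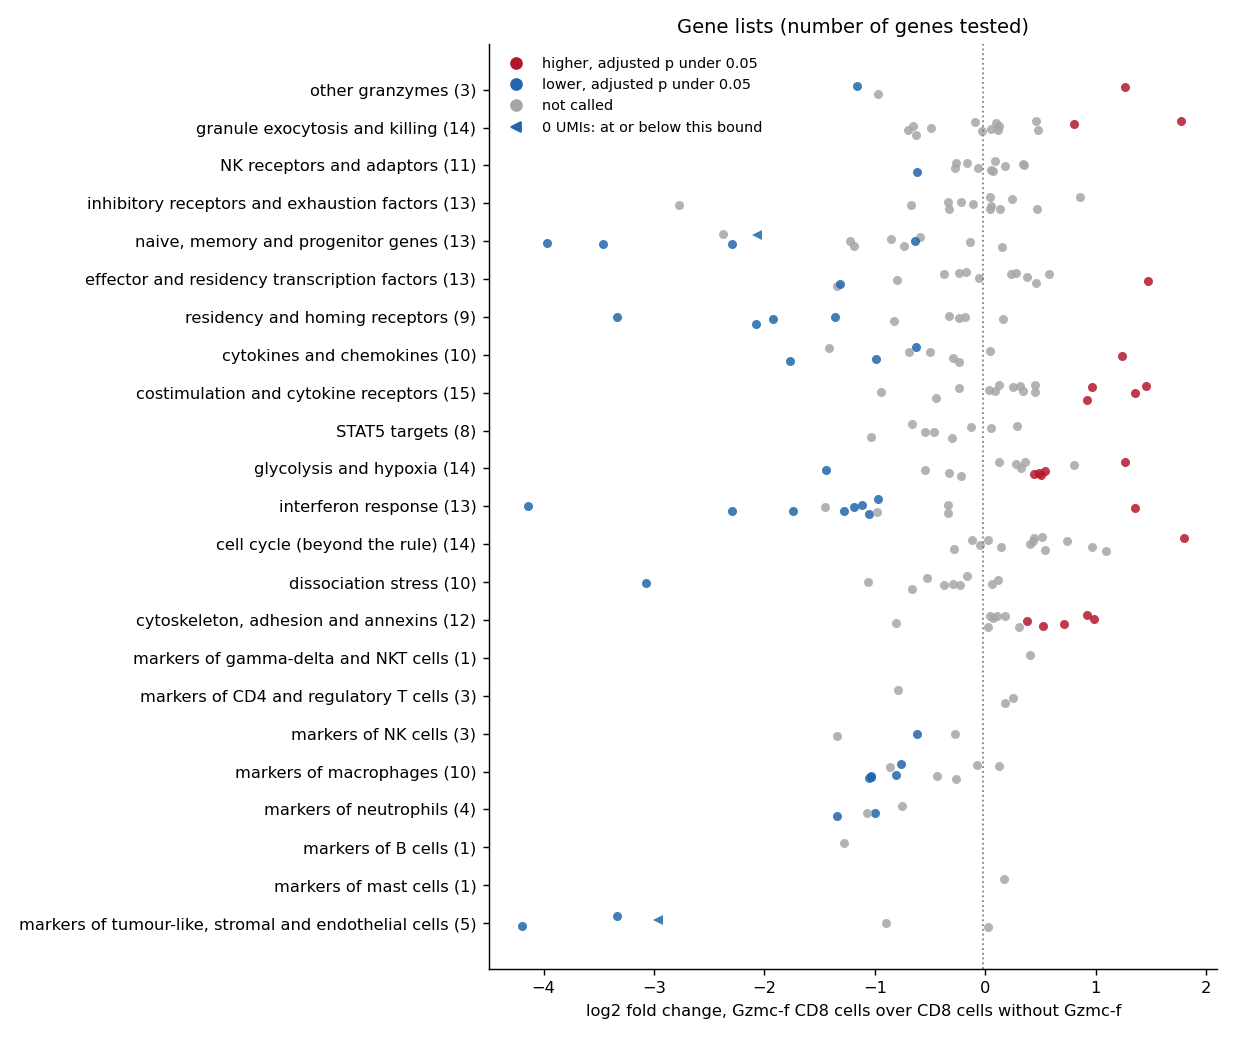
Each point is 1 gene of a list, placed by its log2 fold change between Gzmc-f CD8 cells and CD8 cells without Gzmc-f over 3 libraries, red where higher, blue where lower and grey where not called; the dotted line is the median of all genes. Triangles mark genes with 0 UMIs in the Gzmc-f class, drawn at their bound; 8 of 13 interferon-response genes are blue.

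Perforin, granzyme B, Irf8 and 3 of the 4 costimulatory and cytokine receptors were also called higher when the cells were set against CD8 cells with PD-1 RNA. Against only those CD8 cells without Gzmc-f that held a Pdcd1 UMI, numbering 284 in HFD_shYap, 207 in LFD_shYap and 425 in HFD_WT, edgeR called 63 genes higher (0.905%) and 66 lower (0.949%) of 6958 tested. The calls for Prf1 (1.70 ± 0.16), Gzmb (1.25 ± 0.14), Irf8 (1.45 ± 0.16), Myo10 (2.95 ± 0.40), Il12rb2 (1.30 ± 0.24), Icos (1.04 ± 0.19) and Tnfrsf4 (0.76 ± 0.16) were also made here. Il2ra was not called (1.47 ± 0.41, edgeR adjusted p = 0.0579). In the naive and memory list 2 of 8 genes tested fell, Ccr7 and Xcl1, and the list median was 0.02. The main comparison tested 13 genes of this list, so its median covers other genes and is not comparable. The genes that did not pass the count filter here went untested and were not found unchanged. In the interferon list 6 of 13 fell and Ifitm1 rose. Nr4a2, a nuclear receptor induced by T cell receptor signals, was the only one of 11 inhibitory and exhaustion genes called, and it fell (-0.47 ± 0.11, edgeR adjusted p = 0.0208). A gene lost in this narrower comparison is not shown to differ between the comparisons.

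T cell receptor use could be read in few cells. A Trbv segment was seen in 7 of 28 Gzmc-f CD8 cells in HFD_shYap, 4 of 22 in LFD_shYap, 2 of 23 in HFD_WT and 2 of 3 in LFD_WT. Trbv20 was in 3 of the 4 such cells in LFD_shYap, with an interval of 19.4 to 99.4%, and Trbv19 and Trbv26 in 3 each of the 7 in HFD_shYap. The 3′ chemistry captures few of these segments, and clonality was not analysed here. HFD_shYap also held cells with Xist, the RNA of the inactive X, and cells with Y-linked RNA: among its Gzmc-f CD8 cells 13 had only Xist, 11 only Y-linked RNA and 1 both. No Gzmc-f CD8 cell of the other libraries had Xist. The Xist share of cells with one kind of RNA was 54.2% (32.8 to 74.4%) in Gzmc-f CD8 cells and 46.4% (40.6 to 52.3%) in CD8 cells without Gzmc-f of that library, and the intervals overlapped.

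Diet and tumour line were compared within the Gzmc-f CD8 cells over the 4 library sums, which left 1 residual degree of freedom and let the 3 cells of LFD_WT stand for a whole group. With diet, 3 of 2661 genes tested were higher on high fat (0.113%) by edgeR and 0 lower, against 62 and 32 at an unadjusted p under 0.05. DESeq2 called 5 higher and 0 lower. Ifitm1, an interferon-induced membrane protein, had 221 and 1136 CPM in HFD_shYap and HFD_WT, against 0 and 25.3 CPM in LFD_shYap and LFD_WT (6.31 ± 0.70, edgeR adjusted p = 0.0158). The UMIs of Ifitm1 lay in 8 and 6 cells of the high-fat libraries, and 110 of the 200 in HFD_WT in 1 cell. H2-Eb1, a chain of MHC class II, had 314 and 676 CPM in HFD_shYap and HFD_WT, against 8.85 and 0 CPM in LFD_shYap and LFD_WT (5.49 ± 0.64, adjusted p = 0.0158). H2-Aa, another class II chain, had 336 and 505 CPM in HFD_shYap and HFD_WT, against 22.1 and 50.5 CPM in LFD_shYap and LFD_WT (3.65 ± 0.48, adjusted p = 0.0281). In each high-fat library 1 cell gave most of the class II RNA: 84 of 98 and 108 of 119 UMIs of H2-Eb1, and 89 of 105 and 80 of 89 UMIs of H2-Aa, in HFD_shYap and HFD_WT. Without the barcodes of highest doublet score 3 genes were called and 1 of these 3 stayed called, and with the diet of LFD_shYap read from its treatment field 9 genes were called and none of these 3.

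By tumour line as labelled, edgeR called 0 of 2661 genes higher and 0 lower in shYap, against 45 and 43 at an unadjusted p under 0.05, and DESeq2 called 0 higher and 1 lower. Leaving out HFD_WT gave 59 calls with the line alone in the model, but the WT arm was then the 3 cells of LFD_WT, assumed to vary like the shYap libraries.

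Whether the class difference itself depended on diet was tested as an interaction over 8 sums. Of 7922 genes, the difference between Gzmc-f CD8 cells and CD8 cells without Gzmc-f was higher on high fat for 14 (0.177%) and lower for 4 (0.0505%) by edgeR, and DESeq2 called 0 of either, with 63 at an unadjusted p under 0.05. Ifitm1 and H2-Eb1 were among the 14. Nrgn, a calmodulin-binding protein known from neurons, was among the 4 and was the best supported by cells, since 52 of the 76 Gzmc-f CD8 cells held it. Nrgn stood at 263 and 199 CPM in Gzmc-f CD8 cells of HFD_shYap and HFD_WT, and at 469 and 1011 CPM in those of LFD_shYap and LFD_WT. In CD8 cells without Gzmc-f it stood at 197 and 120.5 CPM in HFD_shYap and HFD_WT and at 121 and 95.7 CPM in LFD_shYap and LFD_WT. The class difference was thus positive in 4 of 4 libraries and larger in both low-fat ones (-1.83 ± 0.44, edgeR adjusted p = 0.0234), with 28 of the 40 UMIs of LFD_WT in 1 cell.

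**Figure D5:**
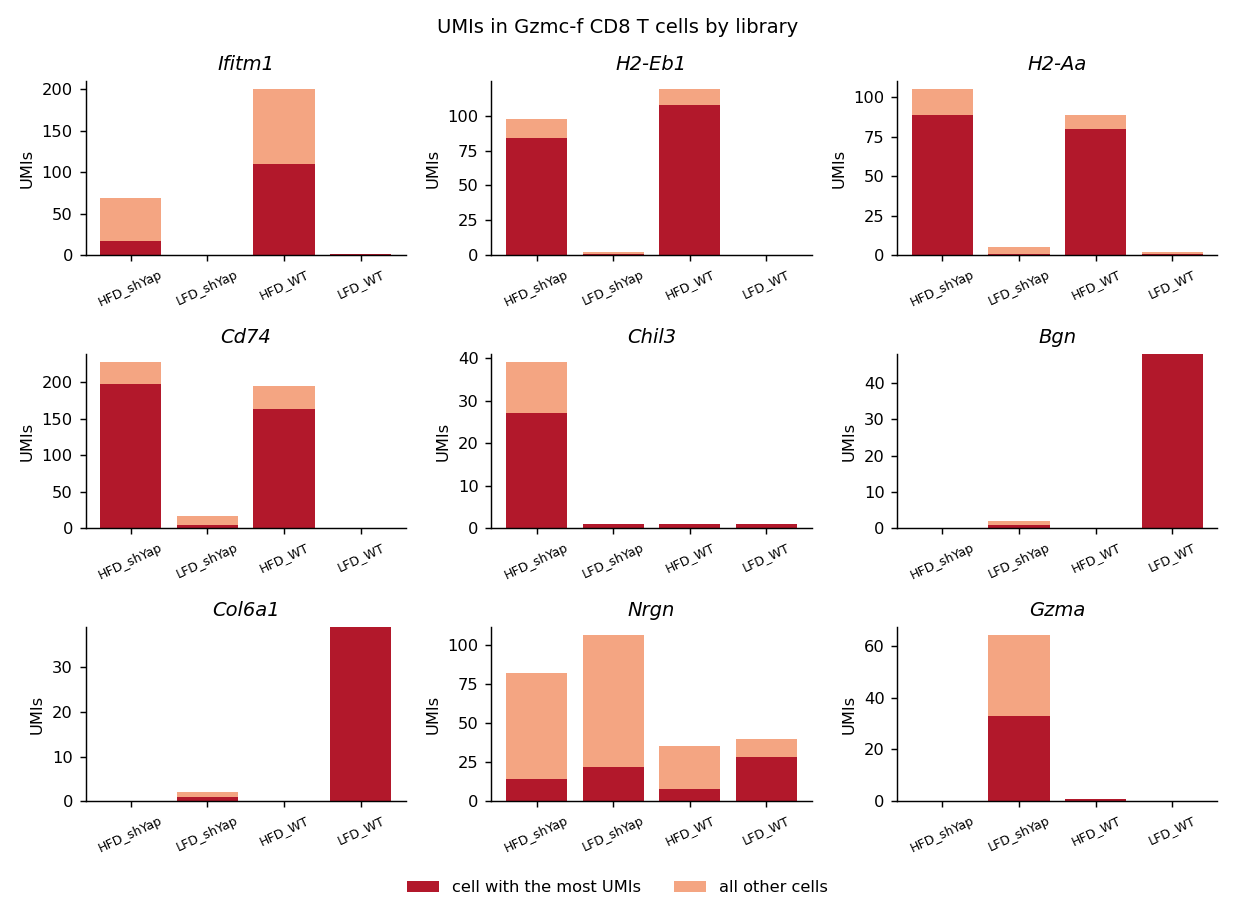
UMIs of 9 genes called with diet or in the interaction, in Gzmc-f CD8 cells of each library, split into the cell with the most UMIs (dark) and all other cells (light). Bgn and Col6a1 come almost wholly from 1 cell of LFD_WT, and H2-Eb1, H2-Aa and Cd74 mostly from 1 cell in each high-fat library, while Nrgn is spread over cells in the 3 larger libraries.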

How the data were processed

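Libraries were made with 10x Genomics 3′ v3.1 chemistry, per the labels' protocols. The deposited values are raw UMI counts per gene and barcode, not normalized. The matrices carry Cell Ranger 6.0.0 per the file headers. An earlier release, Cell Ranger 4.0.0, is listed in the submitters' processing notes with STAR 2.5.1 and mm10, so the release used is uncertain. The rule by which barcodes were called cells was not stated. Of 32285 genes, 32235 matched GENCODE annotation of GRCm38. The gene, feature and barcode columns that were deposited hold names only.

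From these counts, cells were gated, summed per library and class, and tested with edgeR 4.0.16 (R 4.3.3): quasi-likelihood, TMM, filterByExpr, Benjamini-Hochberg at 0.05. Sums of under 10 cells were left out of the class comparison. SE is the absolute log2 fold change over the square root of F. DESeq2 1.42.0 was an alternative. Scripts were tested on simulated data. The summed class depths were 176079 to 312052 UMIs in the 3 fitted Gzmc-f sums and 2264621 to 4076223 in the others. Intervals were exact Poisson or Clopper-Pearson, at 95%. Zero counts allow up to 3 counts. The comparison with Pdcd1-holding cells was planned as an alternative.

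Doublets were scored with Scrublet in scanpy 1.11.5. The automatic threshold marked 0 to 1 barcodes per library and had not worked, so the highest-scoring 0.8% per 1000 barcodes were removed only as an alternative.

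The members, lists and rules were chosen with earlier results of these data known. Named genes are the 10 highest and 10 lowest class log2 fold changes among called genes that changed the same way in all fitted libraries and reached 50 CPM, up to 4 genes of smallest p per direction for the other comparisons, members of the lists, genes of the selection, and the 5 genes most like the Gzmc-f sum. Znf683 and Mx1, listed, were not found by symbol in the files.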

Additional observations from a re-analysis of the deposited data

Results flagged for a closer look

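The difference between Gzmc-f CD8 cells and CD8 cells without Gzmc-f differed between high-fat and low-fat libraries for 8 named genes by edgeR's interaction test, with 1 residual degree of freedom, and DESeq2 called none of them. A positive value means that Gzmc-f CD8 cells stood higher against the other CD8 cells on high fat than on low fat, in log2 units. The values were 8.35 ± 0.88 for Chil3, 5.88 ± 0.90 for Ifitm1, 5.24 ± 0.80 for H2-Eb1, 3.34 ± 0.60 for Cd74, -11.30 ± 1.89 for Bgn, -9.66 ± 2.12 for Col6a1, -1.83 ± 0.44 for Nrgn and -4.32 ± 1.07 for Gzma (SE).

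Most rested on few cells. Chil3, a chitinase-like protein of myeloid cells, had 39 UMIs in Gzmc-f CD8 cells of HFD_shYap, 27 of them in 1 cell, and 1 UMI in each other library, while CD8 cells without Gzmc-f held 49.3 and 167 CPM in HFD_shYap and HFD_WT and 1391 and 302 CPM in LFD_shYap and LFD_WT. Bgn and Col6a1, matrix genes of fibroblasts, had 48 of 50 and 39 of 41 UMIs in 1 cell of LFD_WT. Cd74, the invariant chain of MHC class II, had 197 of 227 UMIs in HFD_shYap and 163 of 195 in HFD_WT in 1 cell each. Gzma had 64 of its 65 UMIs in Gzmc-f CD8 cells of LFD_shYap, in 6 cells, and none in HFD_shYap or LFD_WT. Of these, 33 came from 1 cell with 6 Klrb1c, 23 Tyrobp and 0 Trac UMIs, and 17 from another with 1 Klrb1c UMI. The part of other cells' RNA in these values was not tested.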

How the results depend on the processing

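The class comparison called 262 genes, and 87 with DESeq2, 36 with at least 10 Gzmc-f UMIs per cell, 129 against CD8 cells with Pdcd1, 74 with no library block and 126 to 218 when 1 library was left out (126 without LFD_shYap). It could not be fitted on the cells that passed after thinning. Within Gzmc-f CD8 cells, diet gave 3 calls, and 5 with DESeq2, 13 with no filter, 0 after thinning, 8 with at least 10 Gzmc-f UMIs, 5 with diet alone in the model, 9 with diet from the treatment field and 17 to 63 with 1 library left out. Tumour line gave 0 calls, and 1 with DESeq2, 13 with no filter, 1 after thinning, 3 without the highest doublet scores, 1 with at least 10 Gzmc-f UMIs, 2 with diet from the treatment field and 2 to 59 with 1 library left out. The interaction gave 18 calls, and 0 with DESeq2, 1 after thinning, 2 without the highest doublet scores, 2 with at least 10 Gzmc-f UMIs, 173 with diet from the treatment field and 5 to 178 with 1 library left out. The causes were not tested. On simulated data the interaction recovered 6.70% of genes changed by 2 log2 units.

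The shares of HFD_shYap, LFD_shYap and HFD_WT were 10.5%, 11.6% and 7.37% with 1 or more Gzmc-f UMIs, 2.78%, 1.94% and 1.47% with 10 or more, and 2.41%, 0.503% and 1.27% after thinning. That of LFD_WT was 8.82% with 1 or more, 0.327% with 10 or more, 0.571% after thinning and 1.82% with cycling cells kept.

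Of 844 log2 fold changes of 71 genes, 607 kept their direction and side of the threshold, 228 lost the call, 1 gained it and 8 changed sign. S100a8 was 0.46 against CD8 cells with Pdcd1 and -5.33 to 0.48 with 1 library left out, and S100a9 -6.57 to 0.029, the low values without HFD_WT and the high ones without LFD_shYap. Pdcd1 was -0.031 with no filter, -0.080 without the highest doublet scores, -0.34 with at least 10 Gzmc-f UMIs, -0.46 against CD8 cells chosen for a Pdcd1 UMI, which sets that direction, and -0.0092 to 0.082 with 1 library left out, the low value without HFD_shYap. Prf1, Gzmb, Irf8, Myo10 and Ccr7 were among 16 genes that kept both direction and side of the threshold under each alternative run. The receptors Icos, Il12rb2, Il2ra and Tnfrsf4 and the glycolysis genes Eno1, Gapdh, Ldha, Slc2a3 and Tpi1 were not among the 16. Neither were Tcf7, S1pr1, Cxcr3 and Cd69. Leaving out barcodes with Ncr1 or Klrb1c (219 calls) or under 5000 UMIs (215 calls) was chosen after seeing the data. The class comparison is paired by library. Between diets and lines, each combination has 1 library. No paired analysis was possible because no numbered replicates could be matched.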
